A study of Mus musculus with 8 samples.

Results

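Solute carriers are membrane proteins that move amino acids, sugars, organic acids, ions, metals, vitamins and nucleosides across lipid bilayers. The members described here were 134 genes of the 13689 listed in both deposited tables, one for bone marrow-derived macrophages (BMDM) and one for bone marrow-derived dendritic cells (BMDC). They were chosen by symbol (Slc, a family number, the letter a, a member number) and by a sum of at least 100 counts over the 8 libraries. Of the 237 genes with such a symbol in both tables, 48 of the mitochondrial Slc25 and nucleotide-sugar Slc35 families were left out, 9 were left out by name, and 46 had fewer than 100 counts. A further 25 were listed in the BMDC table alone and 13 in the BMDM table alone. The count minimum had Slc16a4 with 102 counts and Slc16a5 with 103 just inside it, and Slc39a5 with 95 and Slc6a4 with 94 just outside it.

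The libraries were made from poly(A) RNA of C57BL/6 bone marrow cultured for 7 days. BMDM grew in macrophage colony-stimulating factor (M-CSF) at 10 ng/mL and BMDC in granulocyte-macrophage colony-stimulating factor (GM-CSF) at 20 ng/mL. The BMDM groups came from Lyz2-Cre;Trpv2fl/fl mice (BMDM KO) and from Trpv2fl/fl mice (BMDM control). The BMDC groups came from Lyz2-Cre;Trpv2fl/fl mice (BMDC KO) and from Trpv2fl/fl mice (BMDC control). Each of the 4 groups held 2 mice, so p-values rest on the spread between 2 samples a group, pooled over all groups in a fit. In the joint fit of 8 libraries, each cell type comparison thus also drew on the spread within groups that it did not compare. All mice carried floxed alleles of Trpv2, a cation channel gene, and the control mice had no Cre. The Lyz2 promoter drives Cre in macrophages, granulocytes and a part of dendritic cells, so Cre itself and the loss of Trpv2 cannot be told apart. Cell type, growth factor and deposited table also go together and cannot be told apart.

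Immune cells of the myeloid lineage use solute carriers at the cell surface to take up fuel and building blocks, and use others in phagosomes and lysosomes to move the products of digestion out. Amino acid exchangers of the Slc7 family pair with the heavy chain encoded by Slc3a2 and supply leucine and arginine. Carriers of the Slc13 family take up citrate-cycle dicarboxylates with sodium, and Slc13a3 also takes up itaconate, an acid that activated macrophages make. From general knowledge of where the proteins sit, 75 of the 134 members act mainly at the plasma membrane, 43 act mainly inside the cell, 12 are uncertain, and 4 are named after a carrier without being one. The members are therefore referred to as solute carrier genes, whichever membrane they serve. By substrate they comprised 28 amino acid carriers, 23 of metals and heme, 18 of sodium, proton, potassium, chloride and bicarbonate, 11 of sugars and polyols, 11 of vitamins, choline and cofactors, and 11 of organic cations, anions and monoamines. The rest were 9 of mono- and dicarboxylates, 6 of fatty acids, bile acids and lipids, 5 of nucleosides and nucleobases, 3 of peptides, 3 of phosphate and sulfate, 2 calcium exchangers, and the 4 that are not carriers.

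The libraries held between 15790185 and 19463457 counts. Trpv2 stood at 26.4 and 29.2 CPM (counts scaled to library size) in BMDM KO, against 273 and 277 CPM in BMDM control, and at 35.5 and 56.3 CPM in BMDC KO, against 181 and 240.5 CPM in BMDC control. Lyz2, the lysozyme gene whose locus carries Cre, stood at 242 and 274 CPM in BMDM KO, against 63603 and 54968 CPM in BMDM control, and at 103 and 202 CPM in BMDC KO, against 17453 and 19759 CPM in BMDC control. Loss of Lyz2 RNA and loss of Trpv2 RNA thus went together in every KO library. The second BMDC KO library stood apart: its Spearman correlation with the other BMDC libraries was 0.902 to 0.915, against 0.981 to 0.986 among those 3. In that library the shortest of 5 length classes of genes had a median log2 difference of 0.68 from the BMDC control mean, and the longest class one of −0.61.

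Summed CPM of 12 macrophage markers was 11970 to 13474 in the 4 BMDM libraries and 4586 to 9980 in the 4 BMDC libraries. Summed CPM of 14 dendritic cell markers was 306 to 357 in BMDM and 345 to 1212 in BMDC. Markers of that list behaved unlike each other. Flt3 was at 0 in every BMDM library and at most 0.379 CPM in BMDC. Irf4 was at 0.0616 to 0.276 CPM in BMDM and 8.61 to 12.95 CPM in BMDC. Batf3 overlapped, at 4.99 to 8.97 CPM in BMDM and 1.20 to 10.8 CPM in BMDC. Summed CPM of 9 erythroid and platelet markers was 32.3 to 46.2 CPM in BMDM and 785 to 3216 CPM in BMDC. Summed CPM of 12 interferon-stimulated genes was 8318 CPM in the second BMDC KO library and 243 to 764 CPM in the other BMDC libraries. In bulk RNA, fewer cells of a type and less RNA per cell cannot be told apart, and the part of these marker differences in the results below was not tested.

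Levels between genes are compared as FPKM (fragments scaled to transcript length and library size), the authors' deposited length-scaled unit. Of the 134 members, 104 averaged at least 1 FPKM in BMDM KO, 104 in BMDM control, 104 in BMDC KO and 102 in BMDC control, and 6 reached 100 FPKM in each group. Slc48a1, the endolysosomal heme carrier, had the highest FPKM level in BMDM, at 286 and 299 FPKM in KO libraries and 276 and 289.6 FPKM in control libraries. Slc31a2, a copper carrier family member of endolysosomes, had the highest FPKM level in BMDC, at 228 and 252 FPKM in KO libraries and 285 and 163 FPKM in control libraries. Slc48a1 carries heme out of phagolysosomes after red cells are digested there.

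The other members at or near 100 FPKM were mostly shared by both cell types. Slc3a2, the heavy chain of several amino acid exchangers, averaged 137 FPKM in BMDM KO, 126 in BMDM control, 185 in BMDC KO and 179 in BMDC control. Slc6a12, a betaine and GABA carrier, averaged 204 FPKM in BMDM KO, 161 in BMDM control, 137 in BMDC KO and 142 in BMDC control. The BMDC control libraries differed, at 198 and 86.5 FPKM. Slc15a3, an endolysosomal carrier of peptides and histidine, averaged 111 FPKM in BMDM KO, 103 in BMDM control, 146 in BMDC KO and 88.4 in BMDC control. Its BMDC KO mean joined unlike libraries, at 82.9 and 209 FPKM. Slc6a6, the taurine carrier, averaged 90.0 FPKM in BMDM KO, 75.7 in BMDM control, 88.1 in BMDC KO and 113 in BMDC control. Here too the BMDC KO libraries were unlike, at 142 and 34.6 FPKM. Slc13a3 was unlike these, at 138 and 144 FPKM in BMDM KO and 184 and 156 FPKM in BMDM control, and at means of 0.127 FPKM in BMDC KO and 0.0538 FPKM in BMDC control.

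Slc13a3 encodes a sodium-coupled dicarboxylate carrier, and it had the largest fitted difference between cell types of all 134 members. It stood at 700.5 and 752 CPM in BMDM KO libraries, 1059 and 837 CPM in BMDM control libraries, 0.502 and 0.906 CPM in BMDC KO libraries, and 0.325 and 0.195 CPM in BMDC control libraries. Each of the 4 BMDM libraries lay far above each of the 4 BMDC libraries, none of which reached 1 CPM. In reads, BMDM control libraries held 28266 and BMDC control libraries 10, a depth-scaled ratio of 3684 with a 95% counting interval of 2003 to 7684. The corresponding reads in KO libraries were 24253 in BMDM and 23 in BMDC, a ratio of 1084 with an interval of 722 to 1710. These intervals cover counting error only. In edgeR's quasi-likelihood fit over 11671 genes the fitted log2 fold change was 11.81 (SE 0.48) between control groups and 10.03 (SE 0.44) between KO groups. Without the second BMDC KO library the KO difference was 10.48 (SE 0.40). The gene had been singled out from these data beforehand, so this contrast is a description and no p is given for it.

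The promoters of 4 genes that differed the same way in both cell type comparisons are printed next, as examples of genes with a difference in each direction: Slc13a3 and Slc46a1, higher in BMDM, and Slc7a8 and Slc32a1, lower in BMDM. In each direction they had the smallest p between control groups among such genes with a single start in the table. They are RefSeq windows of 250 bases before to 50 bases after the gene start in build GRCm38.p6, 5′ to 3′ on the gene's strand. They lie at chr2:165473148-165473447 on the minus strand for Slc13a3, chr11:78465451-78465750 on the plus strand for Slc46a1, chr14:54781837-54782136 on the minus strand for Slc7a8, and chr2:158610508-158610807 on the plus strand for Slc32a1. Capitals mark the E-box CACGTG.
Slc13a3: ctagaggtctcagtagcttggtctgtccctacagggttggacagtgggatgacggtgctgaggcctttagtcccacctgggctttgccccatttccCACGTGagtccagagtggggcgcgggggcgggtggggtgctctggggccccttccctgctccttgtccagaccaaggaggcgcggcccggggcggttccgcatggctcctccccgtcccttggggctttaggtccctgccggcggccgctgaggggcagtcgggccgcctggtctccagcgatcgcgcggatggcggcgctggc
Slc46a1: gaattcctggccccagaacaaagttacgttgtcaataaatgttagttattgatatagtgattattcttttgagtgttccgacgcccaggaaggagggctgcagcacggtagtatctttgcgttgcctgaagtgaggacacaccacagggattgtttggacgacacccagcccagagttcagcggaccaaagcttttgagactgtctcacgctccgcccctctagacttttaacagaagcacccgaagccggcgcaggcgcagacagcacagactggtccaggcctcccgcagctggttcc
Slc7a8: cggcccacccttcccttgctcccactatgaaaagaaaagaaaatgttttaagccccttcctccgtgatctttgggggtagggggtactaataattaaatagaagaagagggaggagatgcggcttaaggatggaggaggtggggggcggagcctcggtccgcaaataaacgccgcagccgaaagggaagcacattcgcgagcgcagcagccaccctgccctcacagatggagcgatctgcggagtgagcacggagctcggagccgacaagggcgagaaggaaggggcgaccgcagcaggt
Slc32a1: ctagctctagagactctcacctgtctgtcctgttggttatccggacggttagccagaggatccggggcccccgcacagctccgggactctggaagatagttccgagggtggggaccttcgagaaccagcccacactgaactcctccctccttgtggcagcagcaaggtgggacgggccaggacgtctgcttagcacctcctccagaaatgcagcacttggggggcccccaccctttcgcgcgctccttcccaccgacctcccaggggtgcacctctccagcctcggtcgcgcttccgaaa
Of the 134 members, 101 had a promoter in the RefSeq table, with 143 windows among them because some genes have several starts. Each window was searched on both strands for the E-box CACGTG, the PU.1 motif GAGGAAGT, the AP-1 motif TGANTCA and the amino acid response motif TGATGNAA, none of which contains another. The E-box occurred in 20 of the 143 member windows (14.0%) and in 7.15% of all 32851 promoters of that length. The shares were 3.50% of member promoters and 3.20% of all promoters for PU.1, 7.69% and 7.81% for AP-1, and 4.20% and 3.97% for the amino acid response motif. Among the 4 printed windows the E-box of Slc13a3, starting at base 97, was the only match. The 19 members with an E-box included Slc12a7 and Slc39a8, both higher in BMDM in both comparisons, and Slc49a4, lower in BMDM in both comparisons, and Slc16a1, lower between controls, besides lysosomal genes such as Slc31a2, Slc36a1 and Slc38a7. A match is a run of letters and was not tested as a binding site.

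Between BMDM control and BMDC control, 24 of the 134 members passed an adjusted p of 0.05 in edgeR's quasi-likelihood F test (Benjamini-Hochberg adjusted over all 11671 genes), of which 9.75% passed. Slc13a3, chosen from these data beforehand, is among the calls of both cell type comparisons. Of these, 14 were higher in BMDM, where 4.67% of all genes were called higher, and 10 were lower, where 5.08% of all genes were called lower. The median log2 fold change over the members was −0.02, and that over all genes tested was −0.02. Between BMDM KO and BMDC KO, 24 members again passed, against 8.02% of all genes, 13 of them higher (3.38% of genes) and 11 lower (4.64% of genes). The comparisons used different libraries, although one fit shared their estimate of spread, and 16 members passed in both, 66.7% of each list, 8 higher and 8 lower. All 32 members called in either comparison had the same sign in both. Neither this overlap nor the shared sign was counted over all genes, so neither can be read as particular to the members. Over all libraries, 35 members (26.1%) were higher in each of the 4 BMDM libraries than in any BMDC library, against 15.6% of genes, and 23 (17.2%) were lower, against 14.2%.

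**Figure D1:**
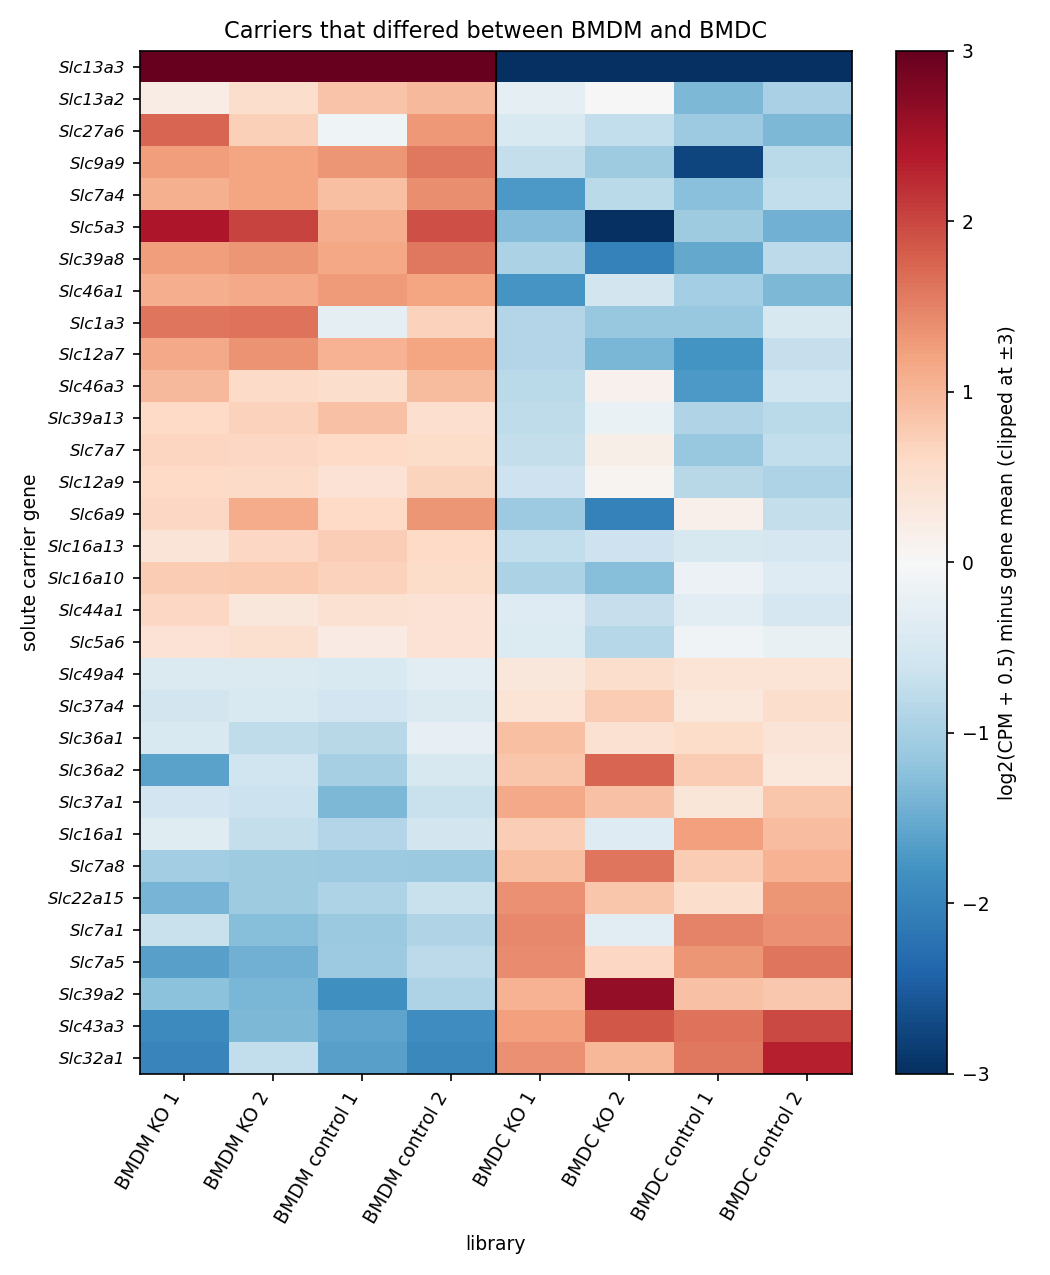
Heat map of the 32 solute carrier genes that passed the threshold in either cell type comparison, ordered by the fold change between control groups. Each column is a library and colour gives log2(CPM + 0.5) minus the gene's mean over the 8 libraries, red above and blue below it. The 4 BMDM columns on the left and the 4 BMDC columns on the right take opposite colours for most genes, and Slc13a3 is clipped at both ends of the scale.

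These counts moved with the libraries in the fit. Without the second BMDC KO library, 67 of 134 members passed between control groups, against 40.8% of all genes, and 59 (44.0% of members) between KO groups, against 30.5% of all genes. Each list held all 24 members named by the fit of 8 libraries. Calls also rose in both comparisons without the first BMDC KO library, among the members and over all genes. With the 4 libraries of each comparison fitted alone, 59 members passed between control groups (38.3% of genes), all 24 among them, and 6 between KO groups (2.48% of genes), 5 of them shared with the 24. Leaving out 1 BMDM control library at a time left 2 calls between control groups, and leaving out 1 BMDM KO library left 3 or 2 between KO groups. With Slc13a3 set aside because it was chosen from these data, Slc43a3 was the only member that passed in both comparisons under all 18 alternatives. Each of the other members called lost its call under at least 1 of them while keeping its sign under all 18. Among the 18 is a fit with replicate number as a block, whose cell type difference is the one fitted at replicate 1. The counts by substrate below are from the fit of 8 libraries, then from the 4 libraries of each comparison fitted alone. In the fit of 8 libraries, 4.67% of all genes were higher and 5.08% lower between controls. Between KO groups these shares were 3.38% and 4.64%. In the fits of 4 libraries, 1995 of 11252 genes were higher and 2316 lower between controls. Between KO groups 88 of 11350 genes were higher and 193 lower. No substrate group was tested against all genes.

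Of the 28 amino acid carriers, 3 were higher and 4 lower in BMDM control than in BMDC control, 4 were higher and 5 lower in BMDM KO than in BMDC KO, and the others did not pass. In the fits of 4 libraries, 4 of 27 tested were higher and 12 lower between controls, and 0 were higher and 2 lower between KO groups. The large neutral amino acid exchangers were lower in BMDM. Slc7a8 stood at 46.6 and 45.9 CPM in BMDM KO and 44.6 and 44.1 CPM in BMDM control, against 179.7 and 292 CPM in BMDC KO and 164 and 198 CPM in BMDC control. The groups did not overlap, and edgeR's log2 fold change was −2.03 (SE 0.28, adjusted p = 0.0058) between controls and −2.35 (SE 0.28, adjusted p = 0.0039) between KO groups. Slc7a5, the leucine exchanger, stood at 2.46 and 2.86 CPM in BMDM KO and 3.79 and 4.86 CPM in BMDM control, against 24.0 and 13.7 CPM in BMDC KO and 22.4 and 27.4 CPM in BMDC control. Each BMDM library lay below each BMDC library, with log2 fold changes of −2.52 (SE 0.35) between controls and −2.82 (SE 0.36) between KO groups. Their shared heavy chain Slc3a2 did not pass, at −0.31 (SE 0.34) between controls and −0.55 (SE 0.34) between KO groups, the second of which was 0.04 (SE 0.21) without the second BMDC KO library.

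Carriers of cationic amino acids differed in opposite directions. Slc7a1, which takes up arginine and lysine, stood at 11.0 and 7.01 CPM in BMDM KO and 7.86 and 9.27 CPM in BMDM control, against 48.9 and 13.9 CPM in BMDC KO and 50.7 and 46.3 CPM in BMDC control. It passed between controls (log2 fold change −2.50, SE 0.55, edgeR's adjusted p = 0.032) and not between KO groups (−1.81, SE 0.54, adjusted p = 0.092), where the second BMDC KO library lay near the BMDM libraries. Without that library its KO difference was −2.44 (SE 0.25) and passed. Slc7a7, an exchanger that releases cationic amino acids, stood at 59.5 and 59.1 CPM in BMDM KO and 58.3 and 55.7 CPM in BMDM control, against 23.1 and 42.8 CPM in BMDC KO and 17.2 and 22.7 CPM in BMDC control. It was higher in BMDM between controls (1.52, SE 0.32, adjusted p = 0.027), and its KO difference of 0.85 (SE 0.31) did not pass, while the value without the second BMDC KO library, 1.36 (SE 0.23), did. Slc7a7 overlaps Oxa1l on the opposite strand, and Slc7a4, an orphan of the same family that was higher in BMDM in both comparisons, overlaps P2rx6.

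Slc16a10, a carrier of aromatic amino acids, was the most abundant amino acid carrier called higher in BMDM. It stood at 182 and 183 CPM in BMDM KO and 171 and 155 CPM in BMDM control, against 55.0 and 43.7 CPM in BMDC KO and 94.5 and 80.6 CPM in BMDC control. The log2 fold change was 0.90 (SE 0.22, edgeR's adjusted p = 0.045) between controls and 1.89 (SE 0.23, adjusted p = 0.0038) between KO groups. Slc32a1, which loads GABA into vesicles of neurons, was low in all groups, at 0.554 and 1.99 CPM in BMDM KO and 0.828 and 0.583 CPM in BMDM control, against 10.2 and 7.73 CPM in BMDC KO and 11.9 and 20.2 CPM in BMDC control. It passed in both comparisons, at −4.49 (SE 0.64) between controls and −2.81 (SE 0.59) between KO groups. Slc6a9, the glycine carrier, and Slc1a3, a glutamate and aspartate carrier, passed as higher between KO groups and not between controls, and Slc36a1 and Slc36a2, proton-coupled amino acid carriers, as lower. None of the 4 passed the test of the difference between the KO effects, and without the second BMDC KO library Slc6a9, Slc36a1 and Slc36a2 passed in both comparisons. Slc1a2, another glutamate carrier, had 0 reads in both BMDM control libraries, against 254 and 14 reads in the BMDC control libraries, and passed as lower without the second BMDC KO library but not with it.

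Among the 9 mono- and dicarboxylate carriers, 3 were higher and 1 lower in BMDM control than in BMDC control, and 2 were higher between KO groups, with Slc13a3 in each count. The fits of 4 libraries gave 3 higher and 2 lower of 8 tested between controls, and 1 higher and 0 lower between KO groups. Slc13a2, the near relative of Slc13a3, was close to the detection limit, with 57 reads in BMDM control and 3 in BMDC control, a depth-scaled ratio of 24.8 with a counting interval of 8.06 to 124, or 12.4 with BMDC control set to the floor of 3 counts per library. It had 39 reads in BMDM KO and 22 in BMDC KO, a ratio of 1.82 with an interval of 1.05 to 3.23. Slc16a1, the lactate and pyruvate carrier, stood at 11.3 and 8.82 CPM in BMDM KO and 7.79 and 9.92 CPM in BMDM control, against 25.0 and 11.2 CPM in BMDC KO and 35.5 and 28.6 CPM in BMDC control. It was lower in BMDM between controls (log2 fold change −1.85, SE 0.40, edgeR's adjusted p = 0.030), and the KO groups overlapped, with 11.3 CPM in the first BMDM KO library and 11.2 CPM in the second BMDC KO library. Without that library the KO difference was −1.31 (SE 0.25) and passed. Slc16a13, a monocarboxylate family member, was higher in BMDM in both comparisons, at 1.25 (SE 0.28) between controls and 1.30 (SE 0.28) between KO groups.

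Slc43a3, on chromosome 2, encodes a carrier of purine nucleobases, and it passed in both comparisons under every alternative run. It stood at 5.42 and 8.24 CPM in BMDM KO and 6.90 and 5.57 CPM in BMDM control, against 51.4 and 79.9 CPM in BMDC KO and 67.8 and 86.3 CPM in BMDC control. All BMDM libraries lay below all BMDC libraries. edgeR's log2 fold change was −3.63 (SE 0.35, adjusted p = 0.0018) between controls and −3.26 (SE 0.34, adjusted p = 0.0022) between KO groups. None of the other 4 carriers of this substrate group passed in either comparison in the fit of 8 libraries. Slc28a2, Slc29a1 and Slc29a2 passed as higher in BMDM between controls, and Slc28a2 and Slc29a1 between KO groups, without the second BMDC KO library. Slc29a1, an equilibrative nucleoside carrier, came nearest in the fit of 8 libraries at 1.22 (SE 0.32, adjusted p = 0.052) between controls, with 68.5 to 79.4 CPM over the BMDM libraries and 25.4 to 51.9 CPM over the BMDC libraries.

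**Figure D2:**
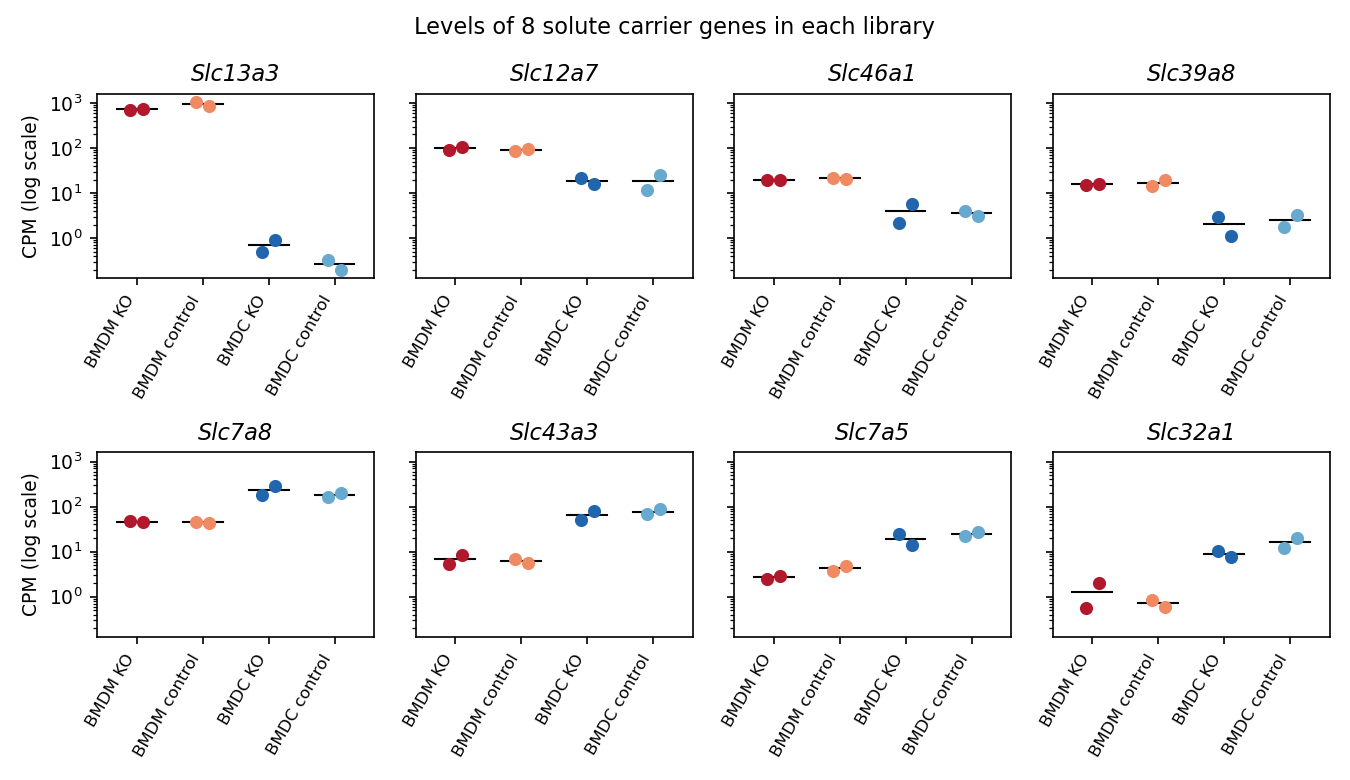
Levels of 8 solute carrier genes on a log CPM axis, with a point for each library and a line at the mean of each group of 2 libraries. Slc13a3, Slc12a7, Slc46a1 and Slc39a8 in the upper row lie higher in both BMDM groups, and Slc7a8, Slc43a3, Slc7a5 and Slc32a1 in the lower row lie lower in them. KO and control means of a cell type lie nearer to each other than to the means of the other cell type. In BMDC, both Slc13a3 KO libraries, at low levels, lie above both control libraries. In BMDM, both Slc7a5 KO libraries lie below both control libraries.

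Of the 23 carriers of metals and heme, 2 were higher in BMDM control than in BMDC control and the other 21 did not pass, and 2 were higher and 1 lower between KO groups, with median log2 fold changes of −0.01 and 0.23. The fits of 4 libraries gave 5 higher and 4 lower between controls, and 0 higher and 0 lower between KO groups. Slc39a8, an importer of zinc and manganese, stood at 15.1 and 16.0 CPM in BMDM KO and 14.3 and 19.1 CPM in BMDM control, against 2.91 and 1.11 CPM in BMDC KO and 1.79 and 3.31 CPM in BMDC control. The log2 fold changes were 2.70 (SE 0.50, edgeR's adjusted p = 0.016) between controls and 2.92 (SE 0.50, adjusted p = 0.014) between KO groups. Slc39a13, a zinc carrier of the secretory pathway that overlaps Psmc3 on the opposite strand, was also higher, at 1.58 (SE 0.27) between controls and 1.11 (SE 0.27) between KO groups. Slc39a2, a zinc importer, was lower, at 0.369 and 0.292 CPM in BMDM KO and 0.0690 and 0.583 CPM in BMDM control, against 3.71 and 12.3 CPM in BMDC KO and 3.25 and 3.12 CPM in BMDC control. It passed between KO groups at −4.57 (SE 0.88, edgeR's adjusted p = 0.020), where the second BMDC KO library held the highest level. Without that library it passed in both comparisons, at −3.23 (SE 0.70) between controls and −3.46 (SE 0.76) between KO groups. Its deposited position overlaps Mettl17 on the same strand. The abundant Slc48a1 and Slc31a2 did not pass in either comparison, at 1.11 and −0.01 between controls. Slc48a1 passed in both without the second BMDC KO library, at 1.12 (SE 0.15) between controls and 1.26 (SE 0.20) between KO groups.

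Among the 18 carriers of sodium, protons, potassium, chloride and bicarbonate, 3 were higher in BMDM control than in BMDC control and 15 did not pass. In the fits of 4 libraries, 6 were higher and 2 lower between controls, and 2 higher and 0 lower between KO groups. Slc12a7, a potassium-chloride carrier that helps cells reduce their volume, stood at 91.7 and 105 CPM in BMDM KO and 85.7 and 94.1 CPM in BMDM control, against 22.1 and 15.6 CPM in BMDC KO and 11.5 and 25.3 CPM in BMDC control. It passed in both comparisons, at 2.29 (SE 0.39, edgeR's adjusted p = 0.012) between controls and 2.38 (SE 0.39, adjusted p = 0.012) between KO groups. Slc9a9, an endosomal sodium-proton exchanger, stood at 58.1 and 56.1 CPM in BMDM KO and 61.5 and 73.0 CPM in BMDM control, against 14.6 and 11.4 CPM in BMDC KO and 3.14 and 13.7 CPM in BMDC control. Its groups did not overlap either, and it passed between controls (2.99, SE 0.59) and not between KO groups (2.14, SE 0.57, edgeR's adjusted p = 0.066). Without the second BMDC KO library its KO difference was 1.97 (SE 0.60), a smaller value with a larger SE. Slc12a9, of the same family as Slc12a7, passed between controls at 1.46 (SE 0.28) and, without that library, between KO groups at 1.24.

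Of the 11 carriers of vitamins, choline and cofactors, 2 were higher and 1 lower in BMDM control than in BMDC control, and 3 were higher and 1 lower between KO groups. In the fits of 4 libraries, 4 were higher and 2 lower between controls, and 0 higher and 0 lower between KO groups. Slc46a1, the proton-coupled folate carrier, stood at 19.3 and 19.8 CPM in BMDM KO and 21.9 and 20.6 CPM in BMDM control, against 2.21 and 5.78 CPM in BMDC KO and 4.06 and 3.16 CPM in BMDC control. The log2 fold changes were 2.56 (SE 0.44, edgeR's adjusted p = 0.013) between controls and 2.30 (SE 0.44, adjusted p = 0.019) between KO groups, the second of which was 3.14 (SE 0.30) without the second BMDC KO library. Slc46a3, its lysosomal relative, passed between controls at 1.87 (SE 0.48), and Slc44a1, a choline carrier, and Slc5a6, which takes up biotin and pantothenate, passed between KO groups at 1.03 (SE 0.22) and 1.12 (SE 0.27). Slc49a4, a lysosomal pyridoxine carrier, was lower in BMDM in both, at −0.82 (SE 0.20) and −0.89 (SE 0.20).

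Of the 11 carriers of sugars and polyols, 2 were lower in BMDM control than in BMDC control and 9 did not pass. The fits of 4 libraries gave 2 higher and 3 lower between controls, and 0 higher and 0 lower between KO groups. The called ones were Slc37a4, which moves glucose-6-phosphate into the endoplasmic reticulum, and its relative Slc37a1, at −0.96 (SE 0.24) and −1.75 (SE 0.37) between controls and −1.14 (SE 0.24) and −1.74 (SE 0.36) between KO groups. Slc5a3, the sodium-coupled myo-inositol carrier that hyperosmotic stress raises, stood at 73.5 and 55.8 CPM in BMDM KO and 28.8 and 52.4 CPM in BMDM control, against 5.07 and 0.557 CPM in BMDC KO and 6.06 and 4.58 CPM in BMDC control. It passed between KO groups (log2 fold change 4.48, SE 0.82, edgeR's adjusted p = 0.017) and not between controls (2.93, SE 0.76, adjusted p = 0.052). Without the second BMDC KO library, whose level was the lowest, it passed in both, at 2.94 (SE 0.31) between controls and 3.67 (SE 0.42) between KO groups. Its position overlaps Mrps6 on the same strand, so reads of the pair may not be separable. In the remaining groups, Slc22a15, an organic cation and ergothioneine carrier, was lower in both comparisons (−2.34, SE 0.55, and −3.29, SE 0.58). Slc27a6, a fatty acid carrier with 6 reads in BMDC control, was higher between controls (3.68, SE 0.90). The 3 peptide, 3 phosphate and sulfate, 2 calcium exchange and 4 non-carrier genes did not pass in either comparison. Without the second BMDC KO library Slc15a4, a lysosomal peptide and histidine carrier, passed as higher in both, the sulfate carrier Slc26a2 and the phosphate carrier Slc20a1 as lower in both, and the exchanger Slc24a5 as higher between controls.

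**Figure D3:**
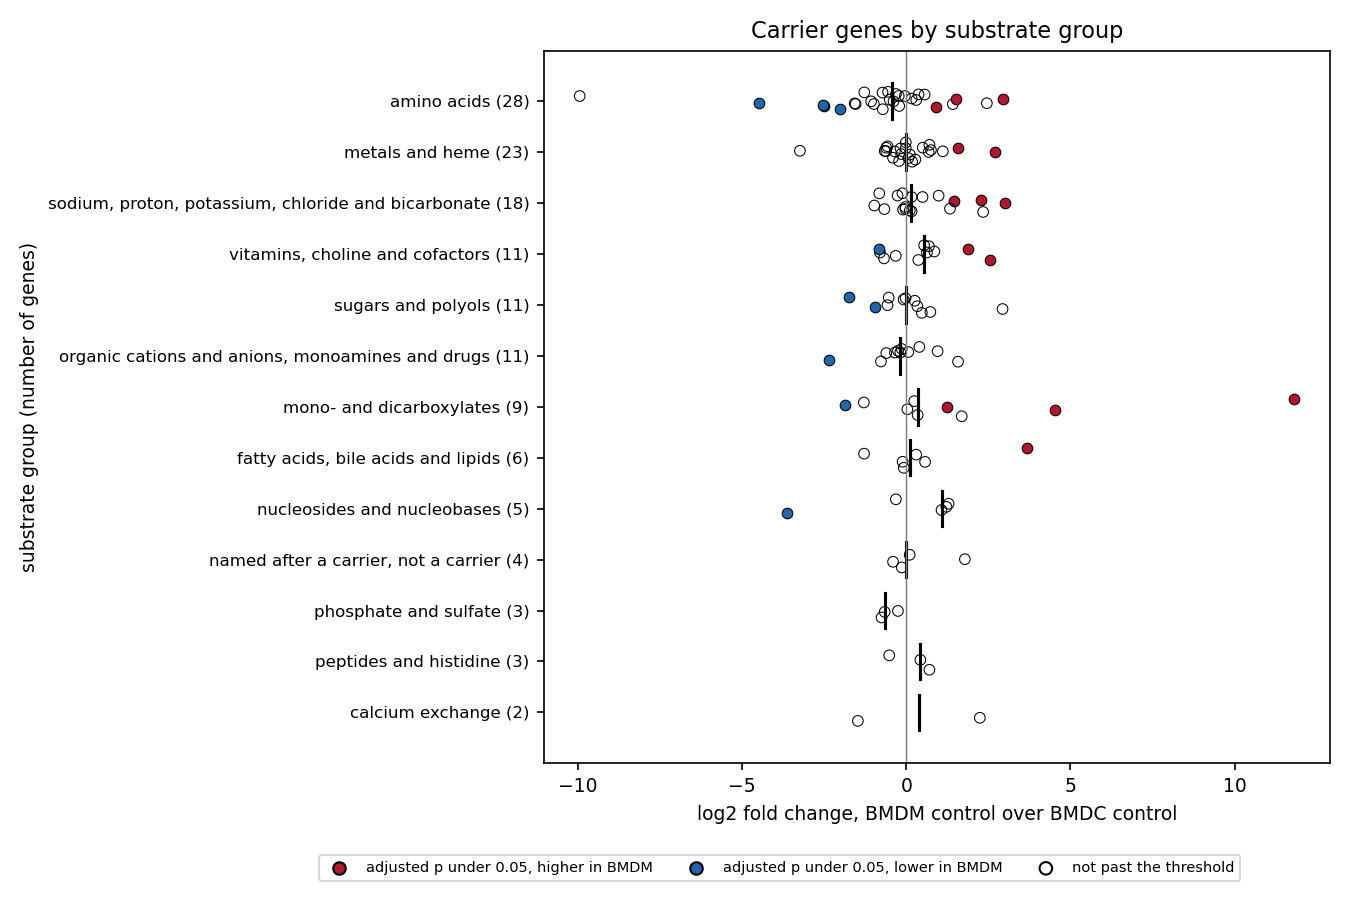
Log2 fold change of each of the 134 members between BMDM control and BMDC control, by substrate group, with a bar at the group median. Filled points passed an adjusted p of 0.05 (red higher and blue lower in BMDM); Slc13a3 is the point at 11.81, and the open point at −9.94 is Slc1a2, whose fitted value depends on a prior count since BMDM control libraries held 0 reads.

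By place in the cell, 8 of 75 plasma membrane carriers were higher and 6 lower in BMDM control than in BMDC control, and 3 of 43 intracellular ones were higher and 4 lower, where 4.67% of all genes were higher and 5.08% lower. Between KO groups the counts were 10 higher and 6 lower at the plasma membrane, and 1 higher and 5 lower inside the cell, where 3.38% of all genes were higher and 4.64% lower. Without the second BMDC KO library 23 plasma membrane carriers were higher and 20 lower between controls, and 9 intracellular ones higher and 11 lower, against 19.3% and 21.5% of all genes. Between KO groups the counts were then 21 and 20 at the plasma membrane and 6 and 8 inside the cell, against 15% and 15.5% of all genes. Median log2 fold changes were 0.03 and −0.04 between controls and 0.11 and −0.14 between KO groups for plasma membrane and intracellular carriers. No test of the difference between these classes was made.

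In BMDM, no solute carrier gene passed the threshold between KO and control. Of 130 members tested in BMDM KO against BMDM control, 0 passed edgeR's quasi-likelihood test after Benjamini-Hochberg adjustment, where 0.109% of 11024 genes passed. At an unadjusted p under 0.05, 8 members (6.15%) were found, against 2.82% of all genes, with 6 higher (1.94% of genes) and 2 lower (0.880% of genes). DESeq2 and limma-voom also called 0 members, each with 7 at an unadjusted p under 0.05. The median log2 fold change over the members was 0.02, against −0.0068 over all genes.

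The members with the smallest p were transporters of glutamate, inositol, peptides and salts. Slc1a3 stood at 2.89 and 2.92 CPM in BMDM KO, against 0.414 and 1.30 CPM in BMDM control, a log2 fold change of 1.74 (SE 0.50, edgeR's adjusted p = 0.64). Slc5a3 stood at 73.5 and 55.8 CPM in BMDM KO, against 28.8 and 52.4 CPM in BMDM control (0.67, SE 0.21, adjusted p = 0.95). Both KO libraries lay above both control libraries for each gene, although for Slc5a3 by little. Slc15a2, a proton-coupled peptide carrier, stood at 2.59 and 3.16 CPM in BMDM KO, against 1.24 and 1.04 CPM in BMDM control (1.33, SE 0.45). Slc12a2, a sodium-potassium-chloride carrier, stood at 10.5 and 7.48 CPM in BMDM KO, against 4.0 and 6.35 CPM in BMDM control (0.79, SE 0.28). Slc4a7, a bicarbonate carrier needed to acidify macrophage phagosomes, stood at 64.8 and 39.0 CPM in BMDM KO, against 34.5 and 36.6 CPM in BMDM control (0.54, SE 0.20).

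Leaving out a library moved some of these across the threshold. Slc5a3 passed without the second BMDM control library (adjusted p = 5.3e-04 in edgeR) and without the second BMDM KO library (adjusted p = 0.046), and Slc4a7 passed without the second BMDM KO library (adjusted p = 0.046). With 1 library left in an arm, that library is assumed to vary like the others. On the lower side, Slc13a3 had a log2 fold change of −0.38 (SE 0.16, unadjusted p = 0.026 in edgeR), with 700.5 and 752 CPM in BMDM KO below 1059 and 837 CPM in BMDM control. The others of smallest p on that side were Slc7a5, Slc16a5, Slc24a5 and Slc9a3r2. Their log2 fold changes by the authors were −0.70, −1.25, −0.64 and −1.11 in that order. By the authors' deposited table, an unadjusted p under 0.05 was held in BMDM by 3 members, Slc1a3, Slc15a2 and Slc12a2, and an adjusted p under 0.05 by 0.

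**Figure D4:**
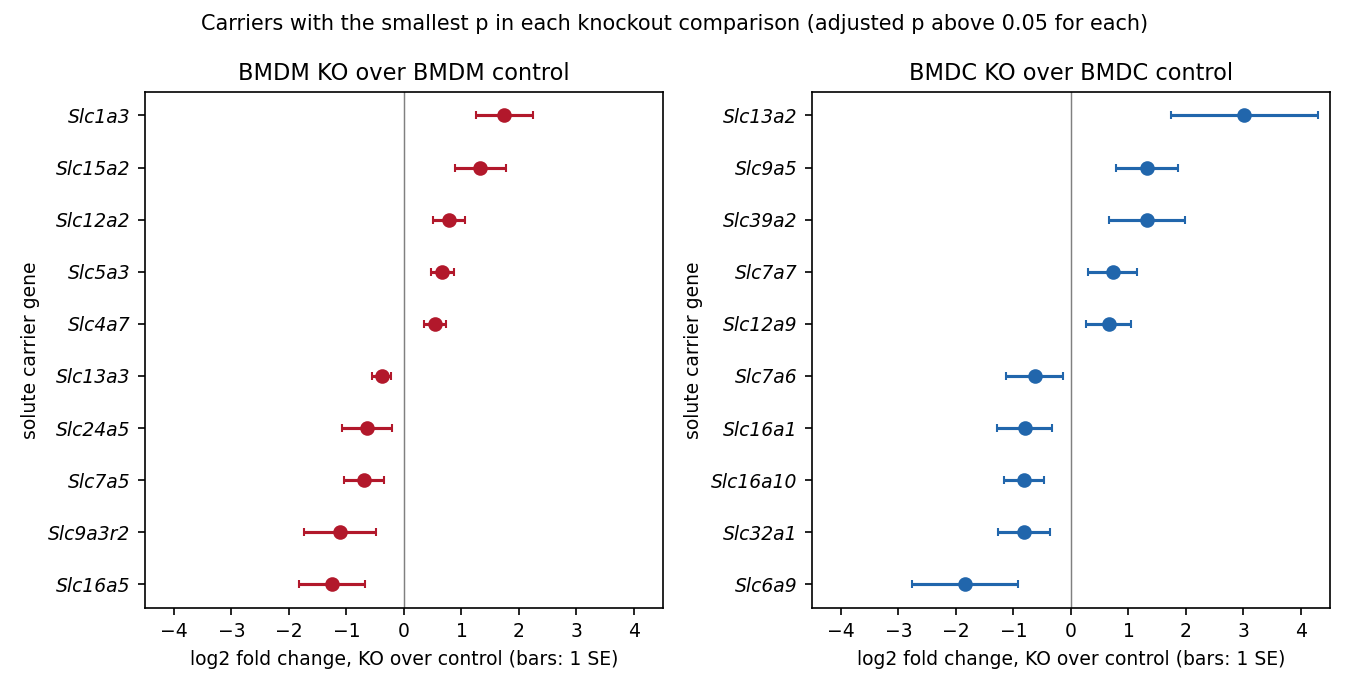
Log2 fold change of KO over control, with bars of 1 SE, for the 5 members in each direction with the smallest p in BMDM (left) and in BMDC (right). Adjusted p was above 0.05 for each, and the widest bars are those of Slc13a2 and Slc6a9 in BMDC.

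In BMDC, 0 of 129 members tested passed between BMDC KO and BMDC control, where 0% of 11357 genes passed edgeR's test. A single member, Slc9a5, had an unadjusted p under 0.05 (0.775% of members), against 1.13% of all genes, and DESeq2 and limma-voom called 0 members, with 0 and 1 at an unadjusted p under 0.05. Slc9a5, a sodium-proton exchanger, stood at 4.11 and 6.97 CPM in BMDC KO, against 2.17 and 2.24 CPM in BMDC control, so that edgeR gave 1.33 on the log2 scale (SE 0.54, adjusted p = 0.97), and 0.92 (SE 0.53) without the second BMDC KO library. The median log2 fold change was 0.03 over the members and 0.02 over all genes.

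The BMDC KO libraries differed from each other in many members. The second lay above the other 3 BMDC libraries in 45 of 127 members (35.4%) and below them in 52 (40.9%), against 41.3% and 40.7% of genes. Slc4a7 stood at 72.6 and 15.8 CPM in BMDC KO, against 63.9 and 75.5 CPM in BMDC control, and Slc6a6 at 1025 and 358 CPM in BMDC KO, against 923 and 851 CPM in BMDC control. Slc15a3 went the other way, at 389.6 and 1406 CPM in BMDC KO, against 501 and 400.1 CPM in BMDC control. Without that library 0 members passed in edgeR, with 3 at an unadjusted p under 0.05. Members passed only in the fit without the first BMDC KO library, which describes the second library set against the controls. The median log2 fold change there was −0.06 over the members and −0.03 over all genes.

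Whether KO and control differed in unlike ways in the cell types was tested as the difference of the KO effects, BMDM minus BMDC. In edgeR's test 0 of 134 members passed, where 0% of 11671 genes passed, and 5 members (3.73%) had an unadjusted p under 0.05, against 1.93% of genes. DESeq2 and limma-voom called 0 members, with 6 and 2 at an unadjusted p under 0.05. The 5 were Slc13a3 at −1.77 (SE 0.54), Slc16a10 at 0.99 (SE 0.31), Slc13a2 at −3.69 (SE 1.18), Slc9a5 at −1.27 (SE 0.51) and Slc9a3r2 at −2.89 (SE 1.18), each with an adjusted p of 0.84. Without the second BMDC KO library they were −1.33, 0.83, −3.45, −0.85 and −1.53 in the same order. For Slc13a3 the BMDC side of that difference rested on 23 reads in KO and 10 in control libraries. Members passed only in the fit without the first BMDC KO library, which left the second alone in its group. The median log2 difference there was 0.10 over the members and 0.0045 over all genes.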

How the data were processed

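The 8 libraries hold poly(A) RNA. Per the labels' protocols, reads were trimmed with cutadapt, aligned to a mouse genome and counted per gene with HTSeq; the submitters' processing notes name GRCm38 and GRCm39. Not given in the sources used here are the build behind each file, the aligner and the strand setting. The authors deposited a table for each cell type with raw counts and FPKM per library, and per gene their mean signal (baseMean), linear fold change ratio, log2 fold change, p-value and adjusted p-value, all used as deposited. Counts were read as deposited. The authors' log2 fold changes and p-values are named as theirs.

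Tests used edgeR 4.0.16 (quasi-likelihood, TMM scaling, filterByExpr with a minimum count of 10, Benjamini-Hochberg over all genes tested, threshold 0.05), with R 4.3.3. The quasi-likelihood test gives no SE. Each SE printed with an edgeR value was derived as the absolute log2 fold change divided by the square root of the F statistic. It is approximate, above all for genes of few reads. Knockout comparisons were fitted within a table. Cell type comparisons and the difference of KO effects were fitted jointly on 8 libraries over genes listed in both tables. CPM uses the TMM-scaled totals. Alternatives used DESeq2 1.42.0, limma 3.58.1 (voom, and log2(FPKM + 1) or log2(FPKM + 0.1)), other scaling and filters, gene length correction, a replicate block and libraries left out. The pipeline was tested on simulated data. A count of 3 per library was taken as the floor.

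The members and lists were chosen with earlier results of these data known. Genes given with values were Slc13a3, up to 5 called members of smallest p and the member of highest FPKM in each substrate group, the 10 largest called changes each way between control groups, and the 5 members of smallest p each way in each knockout comparison. Replicates are 2 mice a group, so p-values rest on the spread between these samples, pooled over all groups in a fit. Of the members, 23 overlap another listed gene, 3 on the same strand. Deposited positions matched the GENCODE annotation at hand for 1 of 134 members, so they were not mixed with it.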

Additional observations from a re-analysis of the deposited data

How the results depend on the processing

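Calls among members between BMDM control and BMDC control were 24 in the reported fit, 38 with DESeq2, 59 with the 4 libraries compared fitted alone, and 2 to 67 over libraries left out 1 at a time. Between BMDM KO and BMDC KO they were 24, against 6 with the 4 libraries alone and 2 to 59 with libraries left out. Apart from the replicate block, the other alternatives stayed within 1.5 times of 24. In BMDM KO against control the count was 0, against 0 to 2 with libraries left out. In BMDC it was 0, against 0 to 30, and for the difference of KO effects 0, against 0 to 38. Outside BMDM, the high ends came from fits without a BMDC KO library. Calls over all genes rose in those fits too, and fell in the fits at the low ends of the cell type comparisons. These ranges thus cannot be read as particular to the members. With DESeq2, 2111 of 13689 genes were called between control groups. The causes of the other shifts were not tested.

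With replicate number as a block (replicate block), 3 members were called between control groups (306 of 11671 genes) and 2 between KO groups (202 of 11671 genes). In the other 3 comparisons 0 members were called. The block was set within each cell type, so its cell type differences are those fitted at replicate 1, not averages over replicates. Its cell type counts are thus not like for like with those of the reported fit. The numbers do not pair the samples: only 2 pairs exist, with same-number correlations of −0.247 in BMDM, −0.0108 in BMDC, 0.118 between control groups and 0.429 between KO groups. A crossed pairing of the BMDM libraries, added after seeing the data, called 29 genes and 1 member.

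Over the named genes, 1337 values under alternatives were set against the reported fit. Of these, 1012 kept both sign and call status, 286 kept the sign but lost the call, and 29 kept the sign and gained a call. The sign changed in 10 that were called in neither fit, and in 0 that were called in either. Fits to log2(FPKM + 0.1) moved the median log2 value of all genes, to −0.19 from −0.02 between control groups, −0.12 from 0.02 in BMDC, 0.10 from −0.0068 in BMDM and 0.21 from −0.03 for the difference of KO effects, with the members' medians moving alike, to −0.20, −0.12, 0.11 and 0.20. Depth was 15790185 counts or more per library, and genes of few reads, such as Slc13a2 and Slc1a3, carry wide counting intervals.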
